A study of Mus musculus with 30 samples.

Results

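The genes described here are 42 members of the autophagy and lysosome machinery of the mouse liver, listed by symbol and divided into autophagy genes, lysosomal genes and the transcription factors *Tfeb* and *Tfe3*. A member was measured where a probe set carried its symbol and no other, and each gene was read on its brightest such probe set over all arrays. This left 39 of the 42 members, namely 24 autophagy genes, 13 lysosomal genes and both transcription factors, out of 18820 genes on the array. *Optn* had no probe set named for it, and *Becn1* and *Ctsb* were only on probe sets shared with *Cntd1* and *Fdft1*, so these 3 were not analysed further. Liver RNA was hybridized to 30 Affymetrix Mouse Gene 1.1 ST arrays, 1 array per liver, from PPARα−/−, CREB3L3−/−, combined PPARα/CREB3L3−/− and wild-type (WT) mice. All mice were males of about 8 weeks on a C57BL/6 background, and the combined knockout came from crossing both single knockout lines. Each genotype was studied after 4 days of a ketogenic diet fed ad libitum and after a 16 h fast, with 3 mice in either PPARα−/− group and 4 mice in every other. No group was fed chow, so the composition of the diet and the fed state cannot be told apart. A diet effect below means only ketogenic minus fasted within a genotype. The study describes both knockouts as whole-body, so the deletions were not restricted to the liver. Livers were analysed whole, so that fewer cells of a type and less RNA per cell cannot be told apart in any value below. Values are log2 intensities after Robust Multichip Averaging (RMA), in which a difference of 1 is a 2-fold change, and intensities of different genes are not compared with each other.

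Autophagy delivers parts of the cytoplasm to the lysosome. The ULK kinase complex starts it, a phosphatidylinositol 3-kinase complex marks the site where the membrane grows, ATG2, ATG9 and WIPI proteins help the membrane to expand, and ubiquitin-like conjugation attaches LC3 to it, to which cargo receptors bind. Lysosomal cathepsins, lipases and glycosidases then degrade the contents. In the liver this pathway supplies amino acids, fatty acids and glucose during fasting, and TFEB and TFE3 are known to switch on many of its genes. PPARα is the nuclear receptor that governs fatty acid oxidation, and CREB3L3 is a membrane-bound transcription factor of the liver that acts after its release by proteolysis.

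All 39 members read above the median of every array, with values between 4.52 and 12.70, against array medians between 4.22 and 4.38. The probe set of *Creb3l3* read 4.29 to 5.14 in the 8 CREB3L3−/− livers and 4.53 to 5.36 in the 8 PPARα/CREB3L3−/− livers, against 9.49 to 10.69 in PPARα−/− livers and 10.42 to 11.28 in WT livers. *Ppara* signal remained in PPARα−/− livers (7.22 to 9.35), and since the allele lacks only part of the gene this probe set does not check the genotype. The 10 hepatocyte markers had a mean log2 intensity of 12.25 to 12.99 over the groups. All arrays were fitted together with limma. A gene was called, by the criterion of the study, where P was under 0.001 and the fold exceeded 1.2, and each adjusted p is a Benjamini-Hochberg p computed across the 35556 probe sets. Log2 fold changes and log2 differences are those of this fit, given with their standard error (SE). Nothing in the labels states that the mice of a group came from separate litters or cages, so p values measure only the spread between these livers.

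The 6-letter sequence CACGTG is the core of the sites that TFEB and TFE3 bind in lysosomal and autophagy genes. Promoter sequences from RefSeq (GRCm38.p6), reaching from 250 bases before to 50 bases after each transcription start, were found for 34 of the 42 members. CACGTG, which reads the same on both strands, was present in 11 of these 34 (32.4%), against 7.15% of 32851 mouse promoters of the same length. The members were counted by gene and all promoters by entry, so the units of these shares differ. The share was 6 of 12 for lysosomal genes and 5 of 20 for autophagy genes. Shown are 2 members that were higher in CREB3L3−/− livers on the ketogenic diet (*Gla*, *Ctsd*), 2 that were lower (*Atg3*, *Bnip3*) and 2 that did not pass the test (*Lamp1*, *Mcoln1*), since the same letters stood in all 3 kinds of promoter. Each stretch is upstream of the start, 5′ to 3′ on the strand of the gene, with CACGTG in capitals.
Gla, chrX:134601170-134601250, minus strand: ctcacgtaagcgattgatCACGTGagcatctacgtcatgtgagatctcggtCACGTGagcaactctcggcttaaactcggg
Ctsd, chr7:142387877-142387957, minus strand: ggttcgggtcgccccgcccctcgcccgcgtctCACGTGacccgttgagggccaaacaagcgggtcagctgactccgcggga
Atg3, chr16:45158709-45158789, plus strand: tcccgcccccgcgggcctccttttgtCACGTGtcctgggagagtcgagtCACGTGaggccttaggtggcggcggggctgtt
Bnip3, chr7:138909566-138909646, minus strand: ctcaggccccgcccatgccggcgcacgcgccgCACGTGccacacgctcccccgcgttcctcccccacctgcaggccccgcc
Lamp1, chr8:13159081-13159160, plus strand: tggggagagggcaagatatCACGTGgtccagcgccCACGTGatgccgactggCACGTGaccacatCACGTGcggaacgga
Mcoln1, chr8:3500429-3500509, plus strand: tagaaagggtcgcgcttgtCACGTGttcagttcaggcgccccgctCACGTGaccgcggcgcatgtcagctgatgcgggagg

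The stretch of *Lamp1* holds 4 copies, those of *Gla*, *Atg3* and *Mcoln1* hold 2 each, and those of *Ctsd* and *Bnip3* hold 1. Of the 11 members with CACGTG, 2 were higher, 6 were lower (*Atg3*, *Atg5*, *Atg7*, *Atg14*, *Bnip3*, *Gaa*) and 3 were not called (*Ctsl*, *Lamp1*, *Mcoln1*) in CREB3L3−/− livers on the ketogenic diet. The longer palindrome with GT before and AC after CACGTG was in none of the 34 and in 0.326% of all promoters. AGGTCA repeated directly with 1 letter of any kind between the copies, an arrangement bound by PPARα with its partner RXR, was in none of the 34 and in 0.0396% of all promoters, with both strands searched. A match of letters is no evidence of binding, and the absence of one says only that these letters are not in this window.

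Of the 6 comparisons with WT, the most members changed in CREB3L3−/− mice on the ketogenic diet. Against WT mice on the same diet, 19 of the 39 members were lower and 5 higher, together 61.5% of the members, whereas 28.7% of all genes were called in this comparison and 46.4% of those above the median level. Of the 24 autophagy genes 16 were lower and 1 was higher, with a median log2 fold change of -0.48. Of the 13 lysosomal genes 3 were lower and 4 higher, with a median of -0.01, against -0.05 over all genes. In the background 11.9% of genes were called lower and 16.7% higher.

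**Figure D1:**
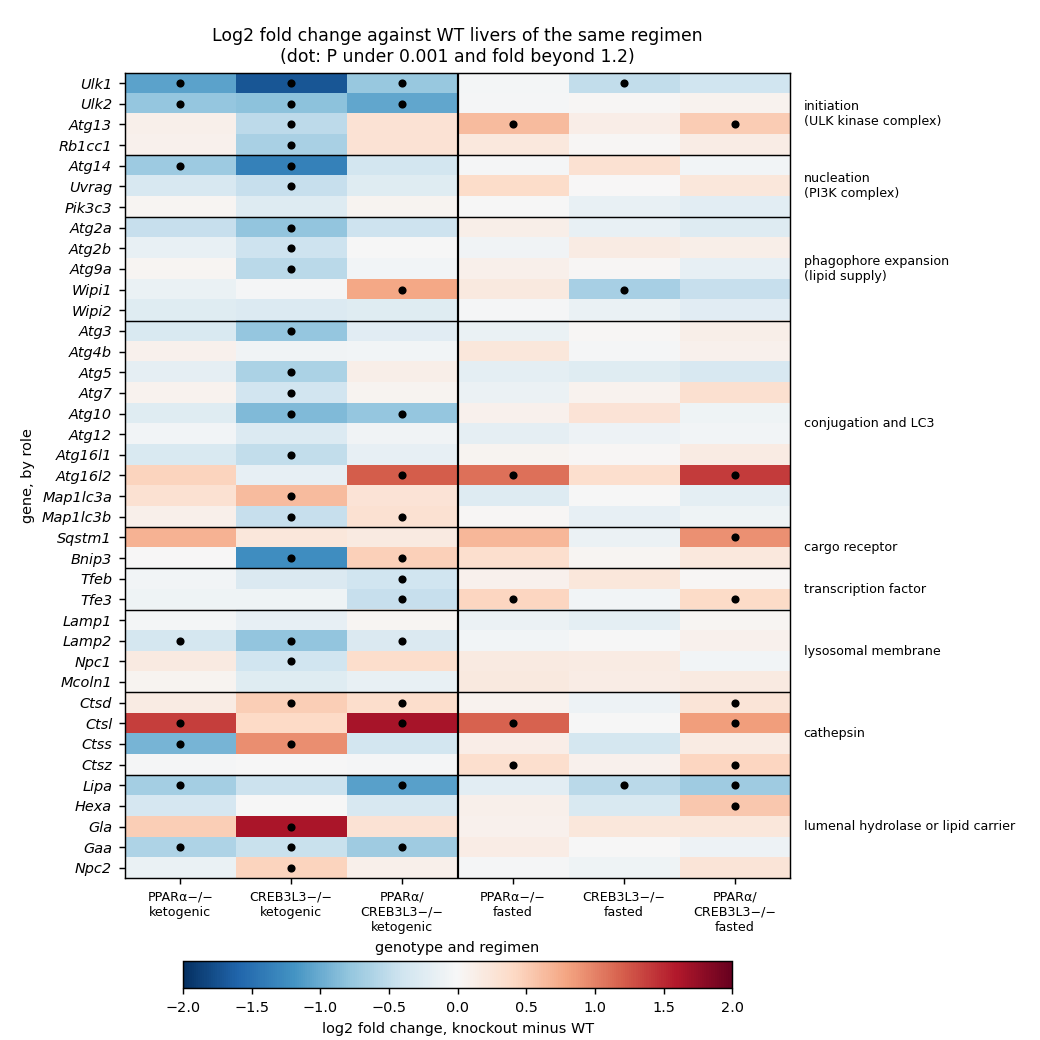
Log2 fold change against WT livers of the same regimen (colour, red higher and blue lower than WT) of the 39 measured members (rows, by role) in PPARα−/−, CREB3L3−/− and PPARα/CREB3L3−/− livers on the ketogenic diet (left 3 columns) and after the fast (right 3 columns). Dots mark calls at P under 0.001 with a fold beyond 1.2. The column of CREB3L3−/− livers on the ketogenic diet holds 24 dots, most of them blue and in autophagy genes.

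The 4 measured genes of the kinase complex that starts autophagy were all lower in CREB3L3−/− livers on the ketogenic diet. *Ulk1*, the kinase itself, read 7.99, 7.91, 7.52 and 8.04 in CREB3L3−/− livers, against 9.75, 9.57, 9.91 and 9.05 in WT livers. Every CREB3L3−/− liver lay below every WT liver, at a log2 difference of -1.70 (SE 0.13, adjusted p = 5.58e-11), which is 0.307 of the WT intensity. *Ulk2*, its paralog, read 7.84, 7.75, 7.80 and 7.93 in CREB3L3−/− livers, against 8.58, 8.73, 8.69 and 8.60 in WT livers. The groups did not overlap, as was the case for 38.5% of all genes, and the log2 fold change was -0.82 (SE 0.10, adjusted p = 1.9e-07). *Rb1cc1*, the scaffold of the complex, was at -0.66 (SE 0.08, adjusted p = 2.03e-07). *Atg13*, its adaptor, was at -0.53 (SE 0.13, adjusted p = 0.0018), a call that was lost in 4 of the 8 fits that leave out 1 of the livers compared. A second, dim probe set of *Rb1cc1*, with a mean of 4.37 close to the array median, was not called in any comparison.

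The kinase complex that marks the growing membrane was represented by 3 genes. *Atg14*, the subunit that directs the lipid kinase to autophagy, read 6.09, 5.90, 5.76 and 6.04 in CREB3L3−/− livers, against 7.35, 7.31, 7.72 and 6.83 in WT livers. The groups were apart, and the log2 fold change was -1.35 (SE 0.17, adjusted p = 4.47e-07). *Uvrag*, which takes the place of *Atg14* in another form of the complex, was lower by a smaller amount, at -0.47 (SE 0.09, adjusted p = 0.000273). *Pik3c3*, the catalytic subunit, was not called, at -0.25 (SE 0.09, adjusted p = 0.0419).

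Among the genes for membrane expansion, *Atg2a* encodes a lipid transfer protein and read 7.77, 7.34, 7.08 and 7.45 in CREB3L3−/− livers, against 8.20, 8.22, 8.21 and 8.15 in WT livers. All 4 CREB3L3−/− livers were below the WT range, at a log2 difference of -0.79 (SE 0.13, adjusted p = 1.62e-05). Its paralog *Atg2b* was at -0.41 (SE 0.07, adjusted p = 2.74e-05), and a second probe set of *Atg2b* was called too, at -0.53. *Atg9a*, which encodes the scramblase carried by autophagy vesicles, was at -0.54 (SE 0.08, adjusted p = 7.61e-06). *Wipi1* and *Wipi2*, which encode proteins that bind the marked membrane, were not called, at -0.03 (SE 0.14) and -0.27 (SE 0.08).

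The conjugation genes were lower in 6 of 10 cases. *Atg10*, the enzyme that joins ATG12 to ATG5, read 5.86, 5.40, 5.17 and 5.48 in CREB3L3−/− livers, against 6.28, 6.45, 6.34 and 6.36 in WT livers, at a log2 difference of -0.88 (SE 0.18, adjusted p = 0.00037). *Atg3*, the enzyme that joins LC3 to lipid, read 8.49, 8.15, 8.52 and 8.50 in CREB3L3−/− livers, against 9.03, 9.13, 9.38 and 9.20 in WT livers, at -0.77 (SE 0.09, adjusted p = 1.29e-07). In both genes every CREB3L3−/− liver was below every WT liver. *Atg5* was at -0.63 (SE 0.09), *Atg16l1* at -0.50 (SE 0.10) and *Atg7*, the activating enzyme of both conjugation reactions, at -0.39 (SE 0.09), the last called in 5 of the 8 fits with 1 liver left out. *Atg4b*, *Atg12* and *Atg16l2* did not pass, with log2 fold changes of -0.06, -0.27 and -0.17.

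The LC3 genes themselves moved apart. *Map1lc3b* read 9.63, 9.62, 9.38 and 9.61 in CREB3L3−/− livers, against 10.00, 10.03, 10.02 and 10.02 in WT livers. It was lower in all 4, at -0.46 (SE 0.08, adjusted p = 3.37e-05), and its second probe set was at -0.39. *Map1lc3a* read 7.36, 7.67, 7.74 and 7.26 in CREB3L3−/− livers, against 6.96, 6.83, 6.88 and 6.82 in WT livers. It was the only autophagy gene called higher there, at 0.63 (SE 0.11, adjusted p = 5.06e-05).

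*Bnip3*, a receptor for the removal of mitochondria, read 9.46, 9.40, 9.45 and 9.71 in CREB3L3−/− livers, against 10.43, 10.79, 10.74 and 11.03 in WT livers. The groups were separated by a wide gap, the log2 fold change was -1.24 (SE 0.12, adjusted p = 2.39e-09), and the second probe set gave -1.23. *Sqstm1*, which encodes the receptor p62 for ubiquitin-tagged cargo, read 11.84, 11.06, 10.62 and 11.02 in CREB3L3−/− livers, against 11.40, 10.97, 10.63 and 10.61 in WT livers. Its groups overlapped, with the first CREB3L3−/− liver above every WT liver, at 0.23 (SE 0.19, adjusted p = 0.393). The transcription factor genes *Tfeb*, at -0.30 (SE 0.10, adjusted p = 0.0283), and *Tfe3*, at -0.08 (SE 0.10), were not called.

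Lysosomal genes went both ways in the same livers. Of the membrane proteins, *Lamp2* read 11.11, 11.02, 11.02 and 11.16 in CREB3L3−/− livers, against 11.84, 11.92, 11.79 and 11.92 in WT livers. The groups were far apart, with a log2 difference of -0.79 (SE 0.06, adjusted p = 5.88e-11). *Lamp1*, the other abundant lysosomal membrane glycoprotein, was at -0.16 (SE 0.06, adjusted p = 0.0433) and *Mcoln1*, a cation channel, at -0.24 (SE 0.08), neither of them called. *Npc1*, which passes cholesterol out of the lysosome, was at -0.40 (SE 0.10, adjusted p = 0.00299), with overlapping groups and a call that was lost in 7 of the 8 fits with 1 liver left out.

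Of the cathepsins, which are the lysosomal proteases, *Ctss* read 9.05, 9.63, 9.69 and 9.48 in CREB3L3−/− livers, against 8.93, 8.70, 8.17 and 8.36 in WT livers. All CREB3L3−/− livers were above the WT range, at 0.92 (SE 0.16, adjusted p = 2.91e-05). *Ctsd* read 11.21, 11.49, 11.23 and 11.32 in CREB3L3−/− livers, against 10.90, 10.88, 10.79 and 10.73 in WT livers, at 0.49 (SE 0.05, adjusted p = 3e-08). *Ctsl* was at 0.40 (SE 0.15, adjusted p = 0.0394) and *Ctsz* at -0.01 (SE 0.07), and neither was called.

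The steepest increase of a member was in *Gla*, which encodes α-galactosidase A, a glycolipid-degrading enzyme. It read 7.75, 8.47, 8.38 and 8.20 in CREB3L3−/− livers, against 6.99, 6.45, 6.40 and 6.45 in WT livers. The groups were apart although the first WT liver stood above the other 3, and the log2 fold change was 1.63 (SE 0.17, adjusted p = 1.15e-08). *Npc2*, the soluble partner of NPC1, was higher as well, at 0.44 (SE 0.11, adjusted p = 0.00242), but lost its call in 7 of the 8 fits with 1 liver left out. *Gaa*, the enzyme that degrades lysosomal glycogen, was lower, at -0.45 (SE 0.07, adjusted p = 1.27e-05). *Hexa*, a ganglioside-degrading hexosaminidase, at -0.01 (SE 0.12), and *Lipa*, the lysosomal acid lipase, at -0.43 (SE 0.14, adjusted p = 0.0203), were not called.

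**Figure D2:**
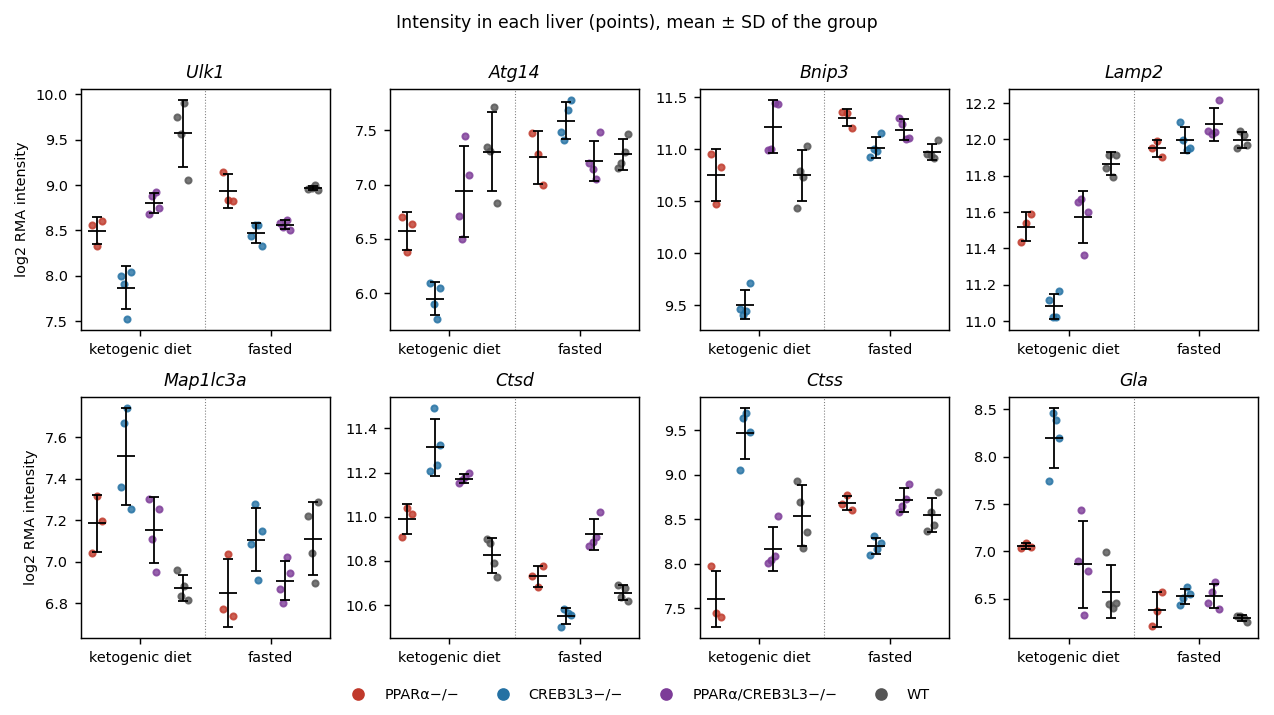
Log2 RMA intensity (y axis, a separate scale for each gene) of 8 members in each liver (points) of PPARα−/−, CREB3L3−/−, PPARα/CREB3L3−/− and WT mice on the ketogenic diet and after the fast, with the mean and SD of each group (bars). CREB3L3−/− livers on the ketogenic diet (blue, on the left) are the lowest for *Ulk1*, *Atg14*, *Bnip3* and *Lamp2* and the highest for *Gla*, *Ctss* and *Ctsd*.

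Cell type markers moved in the same comparison. Of 20 macrophage markers 13 were higher and none lower in CREB3L3−/− livers, and their mean over the list was 8.11 to 8.46 in CREB3L3−/− livers, against 6.87 to 7.54 in WT livers. Of 10 stellate cell markers 7 were higher (mean 7.69 to 8.20 in CREB3L3−/− livers, against 6.69 to 6.87 in WT livers) and of 6 cholangiocyte markers 3 were higher. Of 10 hepatocyte markers 6 were lower and none higher, with a list mean of 11.99 to 12.44 in CREB3L3−/− livers, against 12.74 to 12.86 in WT livers and a median log2 fold change of -0.56. The lower hepatocyte markers included *Cps1*, at -1.18 (SE 0.15), and *Apob*, at -0.86 (SE 0.06), while *Alb* and *Trf* were not called. Macrophages are known to be rich in lysosomal proteases such as cathepsin S, and the part of these markers in the changes of the members was not tested.

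The contrast between the classes was read within each liver as the mean of the 13 lysosomal genes minus the mean of the 24 autophagy genes, a difference whose own size depends on the probes and of which only its change between groups is read. It was 2.20, 2.47, 2.42 and 2.31 in CREB3L3−/− livers on the ketogenic diet, against 1.90, 1.74, 1.56 and 1.71 in WT livers on that diet. All 4 lay above each of the other 26 livers, in which the difference was 1.56 to 1.90. The autophagy mean was 7.54 ± 0.09 in CREB3L3−/− livers and 8.05 ± 0.04 in WT livers (SD, n = 4 each). The lysosomal mean was 9.89 ± 0.06 in CREB3L3−/− livers and 9.78 ± 0.11 in WT livers, and these ranges overlapped.

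**Figure D3:**
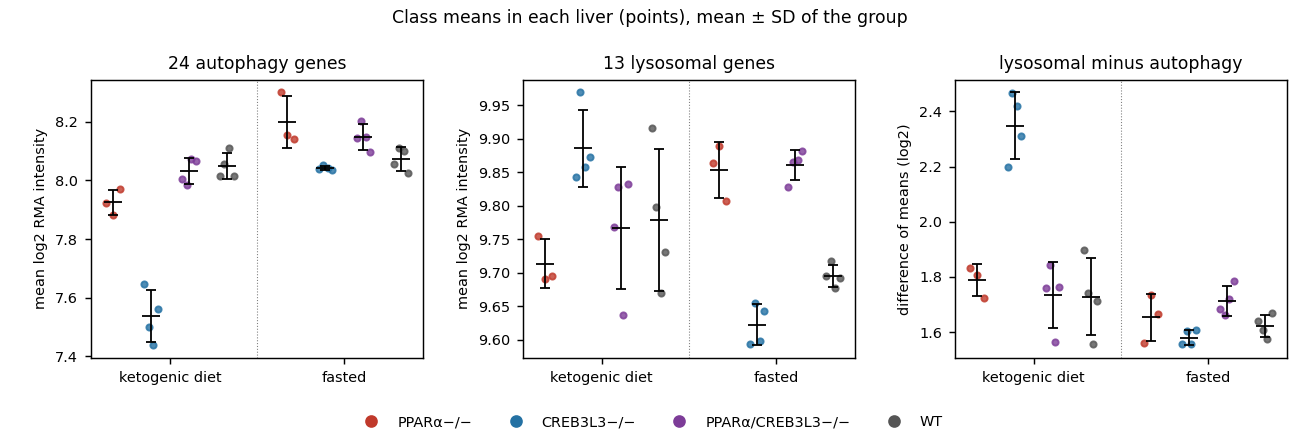
Mean log2 RMA intensity of the 24 autophagy genes (left), of the 13 lysosomal genes (middle) and the lysosomal minus the autophagy mean (right) in each liver (points) of the 8 groups, with the mean and SD of each group (bars). Only CREB3L3−/− livers on the ketogenic diet lie above 1.90 in the right panel.

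In PPARα/CREB3L3−/− livers on the ketogenic diet 3 of the 24 autophagy genes were lower and 4 higher than in WT livers. In this comparison 17.7% of all genes and 31.3% of those above the median level were called. Against CREB3L3−/− livers on that diet 16 members were higher and 4 lower. The share called was 27.8% of all genes (10.6% higher and 17.2% lower) and 44% of those above the median level. All 13 autophagy genes that were called were higher in PPARα/CREB3L3−/− livers. *Bnip3* read 10.99, 11.00, 11.45 and 11.44 in PPARα/CREB3L3−/− livers, above all 4 CREB3L3−/− livers, at 1.71 (SE 0.12, adjusted p = 9.75e-12). *Atg14* read 6.71, 6.50, 7.45 and 7.09 in PPARα/CREB3L3−/− livers, at 0.99 (SE 0.17, adjusted p = 5.09e-05), and *Rb1cc1* read 8.07, 8.14, 8.18 and 8.28, at 0.95 (SE 0.08, adjusted p = 5.07e-10), both without overlap, as 35.3% of all genes. *Ulk1* read 8.68, 8.88, 8.92 and 8.74 in PPARα/CREB3L3−/− livers, at 0.94 (SE 0.13, adjusted p = 1.6e-06) against CREB3L3−/− livers.

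Lysosomal genes again went both ways, 3 higher and 3 lower in PPARα/CREB3L3−/− than in CREB3L3−/− livers. *Ctsl* was higher, at 1.24 (SE 0.15, adjusted p = 1.9e-07), as was the autophagy gene *Atg16l2*, the paralog of *Atg16l1*, at 1.38 (SE 0.23). *Lamp2*, at 0.49 (SE 0.06), and *Npc1*, at 0.74 (SE 0.10), were the other lysosomal genes that were higher. *Gla* read 6.90, 7.44, 6.32 and 6.80 in PPARα/CREB3L3−/− livers, all below the CREB3L3−/− livers, at -1.33 (SE 0.17, adjusted p = 4.13e-07). *Ctss* read 8.00, 8.04, 8.09 and 8.53 in PPARα/CREB3L3−/− livers, likewise below, at -1.30 (SE 0.16, adjusted p = 2.3e-07), and *Lipa* was at -0.65 (SE 0.14) and *Tfe3* at -0.38 (SE 0.10). The call of *Tfe3* was lost in each of the 8 fits with 1 liver left out. Macrophage markers were lower in 17 of 20 cases and stellate cell markers in 8 of 10 in this comparison, and hepatocyte markers were higher in 4 of 10. Their part in these differences was not tested.

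Whether the effect of CREB3L3 ablation depended on PPARα was tested as an interaction, the effect without PPARα minus the effect with PPARα. With PPARα means here that the *Ppara* gene was intact. Its probe set read 8.01 to 8.99 in CREB3L3−/− livers on the ketogenic diet, against 10.37 to 10.54 in WT livers on that diet. The part of this lower *Ppara* signal in the interaction was not tested. On the ketogenic diet the interaction was called in 19 of the 39 members, 16 positive and 3 negative. This compares with 21.2% of all genes (8.2% positive and 13% negative) and 35.3% of those above the median level. Among the autophagy genes 14 of 24 were positive and 1 negative, and the class median was 0.60, against 0.04 over all genes. *Ulk1* had an interaction of 2.01 (SE 0.19, adjusted p = 1.17e-08), since CREB3L3 ablation was at -1.70 with PPARα and at 0.31 (SE 0.14) without it. *Atg14* was at 1.72 (SE 0.25), *Bnip3* at 1.71 (SE 0.17), *Wipi1* at 0.95 (SE 0.21), *Atg5* at 0.91 (SE 0.13) and *Rb1cc1* at 0.86 (SE 0.12). The 3 negative ones were *Gla*, at -1.82 (SE 0.25, adjusted p = 2.41e-06), *Map1lc3a*, at -0.66 (SE 0.16), and *Ctsd*, at -0.31 (SE 0.08). Of the 19 calls 11 were made in all 15 fits that leave out 1 liver. The interaction was also called positive for 6 of 10 hepatocyte markers and negative for 6 of 20 macrophage and 5 of 10 stellate cell markers, and their part in that of the members was not tested.

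Without PPARα, few genes of any kind were called for CREB3L3 ablation, and few members among them. On the ketogenic diet these were 3.44% of all genes (1.07% higher and 2.36% lower) and 6.27% of those above the median level. Of the 39 members 1 differed there between PPARα/CREB3L3−/− and PPARα−/− livers. This was *Wipi1*, which read 7.83, 7.74, 8.22 and 8.04 in PPARα/CREB3L3−/− livers, against 7.18, 6.79 and 7.14 in PPARα−/− livers, at 0.92 (SE 0.15, adjusted p = 0.00136), with groups apart as in 15.4% of all genes. The other 38 log2 fold changes ran from -0.54 to 0.76, and 4 members were called without PPARα−/− replicate 1 and 2 without PPARα−/− replicate 3 or PPARα/CREB3L3−/− replicate 1 or 2. In the fasted state 2 members differed, against 2.41% of all genes (1.19% higher and 1.22% lower) and 4.21% of those above the median level. *Wipi1* was lower there in PPARα/CREB3L3−/− livers, with values of 6.85, 7.02, 6.86 and 6.86, against 7.93, 7.05 and 7.66 in PPARα−/− livers, at -0.65 (SE 0.15, adjusted p = 0.023), and *Atg7* was higher, at 0.45 (SE 0.10, adjusted p = 0.0168). Both had groups apart, as did 13.6% of all genes. Without PPARα−/− replicate 1 neither was called, and without PPARα−/− replicate 3 only 1 was.

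**Figure D4:**
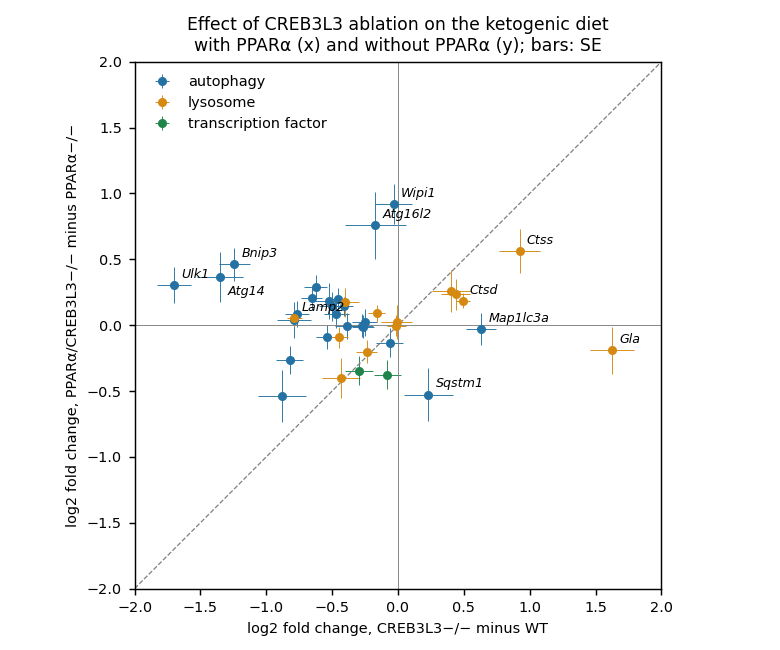
Log2 fold change by CREB3L3 ablation on the ketogenic diet in mice with PPARα (x axis, CREB3L3−/− minus WT) and without PPARα (y axis, PPARα/CREB3L3−/− minus PPARα−/−) for the 39 members, with SE as bars, coloured by class. The dashed line marks equal effects. *Ulk1*, *Atg14* and *Bnip3* lie far to the left at -1.70, -1.35 and -1.24 but above 0 on the y axis.

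PPARα ablation alone lowered 7 members and raised 1 on the ketogenic diet, together 20.5% of them. This compares with 13.6% of all genes called (7.15% lower and 6.45% higher) and 24.4% of those above the median level. *Ulk1* read 8.56, 8.33 and 8.60 in PPARα−/− livers, below all 4 WT livers given above, at -1.07 (SE 0.14, adjusted p = 1.66e-06). *Ctss* read 7.97, 7.44 and 7.40 in PPARα−/− livers, at -0.93 (SE 0.17, adjusted p = 0.000185), the opposite direction to CREB3L3−/− livers. *Ulk2* read 7.66, 7.99 and 7.98, at -0.78 (SE 0.11, adjusted p = 5.11e-06). Both *Ctss* and *Ulk2* were below the WT range in each PPARα−/− liver, and groups were apart for 29.5% of all genes. *Atg14*, at -0.73 (SE 0.19), *Lipa*, at -0.68 (SE 0.15), *Gaa*, at -0.62 (SE 0.08), and *Lamp2*, at -0.35 (SE 0.06), were lower too, the first of them called in only 1 of the 7 fits with 1 liver left out.

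The 1 member that was higher was *Ctsl*. It read 12.43, 12.26 and 12.22 in PPARα−/− livers, against 11.27, 10.81, 10.78 and 10.80 in WT livers. Each PPARα−/− liver was far above each WT liver, at 1.39 (SE 0.16, adjusted p = 2.59e-07). In these livers 10 of 20 macrophage markers were lower, among them *Csf1r*, *Clec4f* and *Adgre1*, and 1 higher (*Gpnmb*, at 3.33), with a list mean of 6.53 to 6.85 in PPARα−/− livers, against 6.87 to 7.54 in WT livers. Stellate cell markers were lower in 4 of 10 cases (list mean 6.01 to 6.26 in PPARα−/− livers, against 6.69 to 6.87 in WT livers) and sinusoidal endothelial markers in 2 of 9 (7.69 to 7.86 in PPARα−/− livers, against 8.16 to 8.32 in WT livers). Hepatocyte markers were lower in 7 of 10 cases, and the part of these lists in the changes of the members was not tested.

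In PPARα/CREB3L3−/− mice on the ketogenic diet 8 members were lower and 6 higher than in WT mice. The share called was 17.7% of all genes (10.3% lower and 7.44% higher) and 31.3% of those above the median level. *Ctsl* read 12.48, 12.55, 12.68 and 12.54 in PPARα/CREB3L3−/− livers, at 1.65 (SE 0.15, adjusted p = 2.39e-09). *Atg16l2* read 6.09, 5.99, 6.98 and 6.17 in PPARα/CREB3L3−/− livers, against 5.08, 5.11, 5.10 and 5.09 in WT livers, at 1.21 (SE 0.23, adjusted p = 0.000297). Both genes were higher in each PPARα/CREB3L3−/− liver than in any WT liver, and groups were apart for 26.8% of all genes. *Wipi1* was at 0.78 (SE 0.14), *Ctsd* at 0.35 (SE 0.05) and *Map1lc3b* at 0.30 (SE 0.08), and *Bnip3*, whose groups overlapped, was at 0.47 (SE 0.12). The calls of *Map1lc3b* and *Bnip3* were lost in 6 and 4 of the 8 fits with 1 liver left out, and both were also lost when the arrays were centred on their medians.

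Among the lower members, *Lipa* read 10.26, 10.28, 9.51 and 9.95 in PPARα/CREB3L3−/− livers, against 11.25, 11.26, 10.86 and 10.96 in WT livers, at -1.08 (SE 0.14, adjusted p = 1.52e-06). *Ulk2* read 7.55, 7.65, 7.41 and 7.83 in PPARα/CREB3L3−/− livers, at -1.04 (SE 0.10, adjusted p = 7.34e-09), and *Gaa* read 8.44, 8.53, 8.53 and 8.59, against 9.20, 9.30, 9.13 and 9.30 in WT livers, at -0.71 (SE 0.07, adjusted p = 1.84e-08). None of these 3 genes overlapped between the groups. *Atg10* was at -0.77 (SE 0.18), *Ulk1* at -0.76 (SE 0.13) and *Lamp2* at -0.29 (SE 0.06). Both transcription factor genes were lower, *Tfe3* at -0.46 (SE 0.10, adjusted p = 0.000935) and *Tfeb* at -0.40 (SE 0.10, adjusted p = 0.00519), and *Tfeb* lost its call in 5 of the 8 fits with 1 liver left out. *Tfe3* read 7.63, 7.61, 7.60 and 7.43 in PPARα/CREB3L3−/− livers, against 8.15, 8.11, 7.90 and 7.96 in WT livers. Hepatocyte markers were lower in 6 of 10 and sinusoidal endothelial markers in 7 of 9 cases in the same livers, and their part was not tested.

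**Figure D5:**
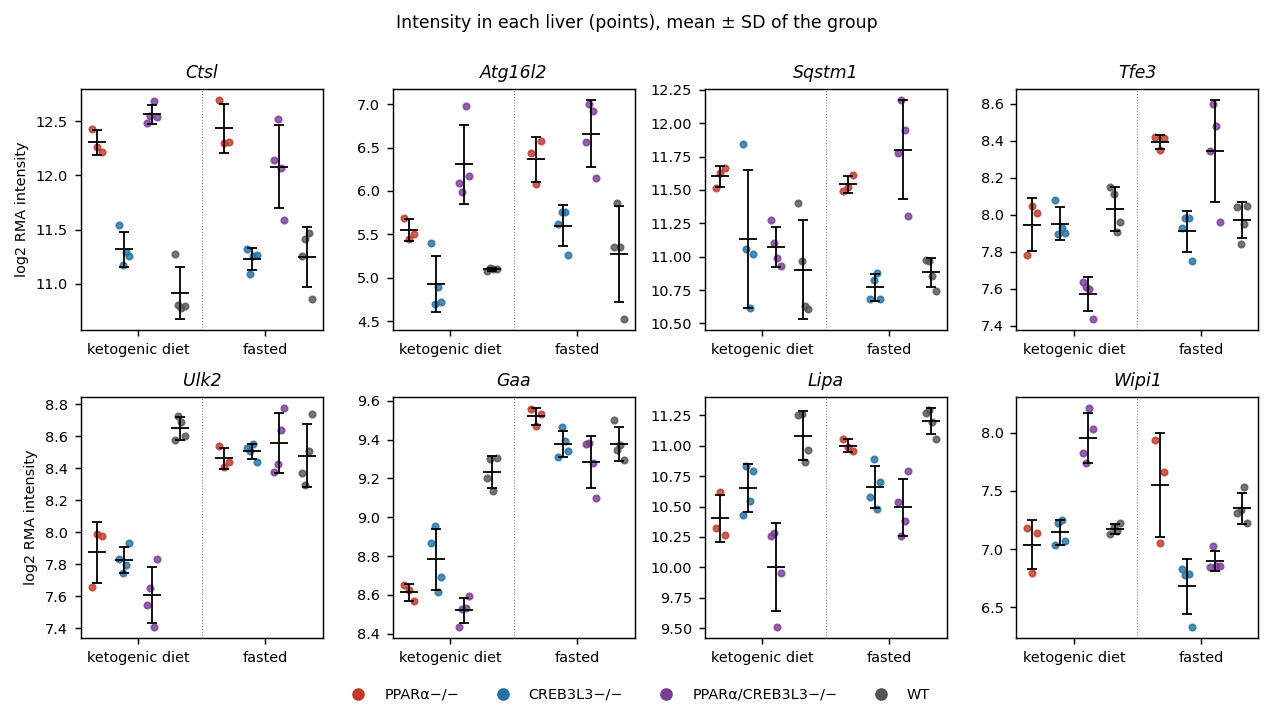
Log2 RMA intensity (y axis, a separate scale for each gene) of 8 members in each liver (points) of the 4 genotypes on the ketogenic diet and after the fast, with the mean and SD of each group (bars). *Ctsl* is above WT in PPARα−/− and PPARα/CREB3L3−/− livers (red and purple) under both regimens, whereas *Gaa* and *Ulk2* lie below WT in these livers on the ketogenic diet.

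After the fast fewer members differed from WT, and those that did were mostly higher in livers without PPARα. In fasted PPARα−/− livers 5 members were higher and none lower. The share called was 5.7% of all genes (3.11% higher and 2.58% lower) and 10.3% of those above the median level. *Ctsl* read 12.70, 12.30 and 12.30 in PPARα−/− livers, against 11.25, 11.41, 11.47 and 10.86 in WT livers, at 1.18 (SE 0.16, adjusted p = 2.47e-05). *Atg16l2* read 6.44, 6.08 and 6.58 in PPARα−/− livers, against 5.35, 5.86, 5.35 and 4.52 in WT livers, at 1.09 (SE 0.25, adjusted p = 0.00834). The groups of both genes were apart, which was so for 22.3% of all genes. *Atg13*, at 0.63 (SE 0.14), *Tfe3*, at 0.42 (SE 0.11), and *Ctsz*, another cysteine protease, at 0.34 (SE 0.08), were the others. Only *Ctsl* was called in each of the 7 fits with 1 liver left out, and the number called was 3 without WT replicate 4, PPARα−/− replicate 1 or PPARα−/− replicate 2 and 2 without PPARα−/− replicate 3.

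In fasted PPARα/CREB3L3−/− livers 8 members were higher and 1 lower. This compares with 9.76% of all genes (5.81% higher and 3.95% lower) and 17.7% of those above the median level. *Atg16l2* read 6.56, 7.01, 6.92 and 6.15 in PPARα/CREB3L3−/− livers, at 1.39 (SE 0.23, adjusted p = 0.000167). *Sqstm1* read 11.77, 12.17, 11.95 and 11.30 in PPARα/CREB3L3−/− livers, against 10.97, 10.97, 10.85 and 10.74 in WT livers, at 0.92 (SE 0.19, adjusted p = 0.00147). Fasted PPARα−/− livers read 11.49, 11.52 and 11.62 for *Sqstm1*, at 0.66 against WT livers, and ketogenic ones 11.51, 11.63 and 11.66, at 0.70. Neither was called, nor was *Sqstm1* between fasted PPARα/CREB3L3−/− and PPARα−/− livers, at 0.26. *Ctsl* read 12.14, 12.52, 12.07 and 11.59 in PPARα/CREB3L3−/− livers, at 0.83 (SE 0.15, adjusted p = 0.000326). In these 3 genes each PPARα/CREB3L3−/− liver was above each WT liver, the fourth standing closest to them, and 20.7% of all genes had groups apart. *Hexa* was at 0.54 (SE 0.12), *Atg13* at 0.51 (SE 0.13), *Ctsz* at 0.43 (SE 0.07), *Tfe3*, with overlapping groups, at 0.38 (SE 0.10) and *Ctsd* at 0.26 (SE 0.05). The calls of *Tfe3*, *Atg13* and *Ctsd* were lost in 7, 5 and 3 of the 8 fits with 1 liver left out. All 3 were also lost when the arrays were centred on their medians. *Lipa* was the 1 lower member, with values of 10.54, 10.26, 10.38 and 10.79 in PPARα/CREB3L3−/− livers, against 11.27, 11.30, 11.20 and 11.05 in WT livers, at -0.71 (SE 0.14, adjusted p = 0.00112).

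Fasted PPARα/CREB3L3−/− livers also exceeded fasted CREB3L3−/− livers in 7 members and were below them in none. The share called was 7.59% of all genes (4.22% higher and 3.36% lower) and 13.5% of those above the median level. The 7 members were *Atg16l2*, at 1.06 (SE 0.23), *Sqstm1*, at 1.03 (SE 0.19), *Ctsl*, at 0.85 (SE 0.15), *Hexa*, at 0.84 (SE 0.12), *Tfe3*, at 0.43 (SE 0.10), *Ctsd*, at 0.37 (SE 0.05), and *Ctsz*, at 0.35 (SE 0.07). The call of *Tfe3* was lost in 3 of the 8 fits with 1 liver left out. *Hexa* read 8.98, 8.79, 9.05 and 8.98 in PPARα/CREB3L3−/− livers, well above 8.02, 8.12, 8.02 and 8.30 in CREB3L3−/− livers (adjusted p = 2.35e-05). Its groups were apart, as were those of 18.7% of all genes. Macrophage markers were higher in 2 of 20 cases and no hepatocyte marker was called in this comparison.

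CREB3L3 ablation alone had little effect on the members in the fasted state. In fasted CREB3L3−/− livers 3 members were lower and none higher. This compares with 1.54% of all genes (0.648% higher and 0.893% lower) and 2.61% of those above the median level. *Wipi1* read 6.83, 6.78, 6.79 and 6.33 in CREB3L3−/− livers, against 7.31, 7.33, 7.53 and 7.23 in WT livers, at -0.67 (SE 0.14, adjusted p = 0.0143). *Lipa* read 10.57, 10.89, 10.48 and 10.70 in CREB3L3−/− livers, at -0.54 (SE 0.14, adjusted p = 0.052), and *Ulk1* read 8.43, 8.56, 8.56 and 8.33, against 8.96, 8.96, 9.0 and 8.95 in WT livers, at -0.50 (SE 0.13, adjusted p = 0.0482). All 3 were below WT in every liver, where 9.19% of all genes had groups apart. *Ulk1* lost its call in 7 and *Lipa* in 6 of the 8 fits with 1 liver left out, so that 1 member was called without WT replicate 1, 2 or 3 or CREB3L3−/− replicate 1, 3 or 4. The interaction of both deletions in the fasted state was called in 3 members, *Hexa* at 0.73 (SE 0.17), *Lamp1* at 0.34 (SE 0.09) and *Ctsd* at 0.29 (SE 0.08). None of the 3 had an adjusted p under 0.05 in the limma fit (0.0845, 0.123 and 0.124). The share called was 0.834% of all genes (0.489% positive and 0.345% negative) and 1.33% of those above the median level. Only 1 of the 3 was called without WT replicate 1 or 4, CREB3L3−/− replicate 1, 2 or 4, PPARα−/− replicate 1 or 3 or PPARα/CREB3L3−/− replicate 4.

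In WT mice 3 members were higher on the ketogenic diet than after the fast and none lower. The share called was 5.23% of all genes (3.6% higher and 1.63% lower) and 9.3% of those above the median level. *Ulk1* was at 0.60 (SE 0.13, adjusted p = 0.00437), with its 4 values on the diet above all 4 after the fast, a separation seen in 15.5% of all genes. *Hexa* read 9.27, 8.88, 8.85 and 8.81 on the ketogenic diet, against 8.35, 8.50, 8.29 and 8.51 after the fast, at 0.54 (SE 0.12, adjusted p = 0.00556), and *Ctsz*, whose groups overlapped, was at 0.29 (SE 0.07). Without WT replicate 1 of the ketogenic diet 1 of the 3 was called.

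In CREB3L3−/− mice 18 members were lower and 5 higher on the ketogenic diet than after the fast. This compares with 32.3% of all genes (13% lower and 19.3% higher) and 51.3% of those above the median level. No autophagy gene was higher and 15 of 24 were lower, led by *Atg14*, at -1.64 (SE 0.17, adjusted p = 1.47e-08), and *Bnip3*, at -1.51 (SE 0.12, adjusted p = 5.5e-11). Groups were apart in 43.2% of all genes here, in 35.6% in PPARα−/− mice and in 27.3% in PPARα/CREB3L3−/− mice. *Lamp2* was at -0.92 (SE 0.06). The 5 higher members were all lysosomal, *Gla* at 1.67 (SE 0.17), *Ctss* at 1.26 (SE 0.16), *Hexa* at 0.83 (SE 0.12), *Ctsd* at 0.76 (SE 0.05) and *Npc2* at 0.61 (SE 0.11). In the same livers 16 of 20 macrophage markers were higher and none lower, with a list mean of 8.11 to 8.46 on the ketogenic diet, against 6.62 to 6.84 after the fast. Of the stellate cell markers 8 of 10 were higher and 1 lower (7.69 to 8.20 on the diet, against 6.49 to 6.59 after the fast), and of the hepatocyte markers 5 of 10 were lower (11.99 to 12.44 on the diet, against 12.77 to 12.86 after the fast). In PPARα−/− mice 9 members were lower and none higher, with *Ctss* at -1.08 (SE 0.18) and *Gaa* at -0.91 (SE 0.08) as the steepest. Without fasted PPARα−/− replicate 1, 4 members were called. The share called was 11.4% of all genes (5.54% lower and 5.83% higher) and 20.5% of those above the median level. In PPARα/CREB3L3−/− mice 8 members were lower and 3 higher, among them *Ulk2*, at -0.95 (SE 0.10), *Tfe3*, at -0.78 (SE 0.10), and *Wipi1*, at 1.06 (SE 0.14). This compares with 17.4% of all genes (9.53% lower and 7.85% higher) and 30.9% of those above the median level. Macrophage markers were lower in 11 of 20 cases and higher in 1 in PPARα−/− mice and lower in 10 and higher in 3 in PPARα/CREB3L3−/− mice, and hepatocyte markers were lower in 7 and 6 of 10. The part of these markers in the diet effects was not tested.

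Whether a knockout acted differently under the 2 regimens was tested as a difference of effects, ketogenic minus fasted. For CREB3L3 ablation 17 members were called, 13 negative and 4 positive. This compares with 18.9% of all genes (8.3% negative and 10.6% positive) and 30.5% of those above the median level. The autophagy genes held 10 of the negative ones, with *Atg14* at -1.66 (SE 0.24, adjusted p = 1.04e-05) and *Ulk1* at -1.21 (SE 0.18), and the positive ones were *Gla*, at 1.40 (SE 0.24), *Ctss*, at 1.27 (SE 0.22), *Map1lc3a*, at 0.64 (SE 0.16), and *Ctsd*, at 0.60 (SE 0.08). For PPARα ablation 5 members were called, all negative, namely *Ctss*, *Ulk1*, *Gaa*, *Ulk2* and *Uvrag*, at -1.07 to -0.68. The share called was 4.91% of all genes (2.82% negative and 2.09% positive) and 8.67% of those above the median level. For the combined ablation 8 members were called, 6 of them negative, with *Ulk2* at -1.12 (SE 0.14) and *Wipi1* at 1.23 (SE 0.20) at the ends. The share called was 9.76% of all genes (6.36% negative and 3.4% positive) and 17.2% of those above the median level.

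Genes of the same pathway outside the 42 were counted on lists of their own. In CREB3L3−/− livers on the ketogenic diet 12 of 33 further autophagy genes were lower and 3 higher than in WT livers, where 28.7% of all genes and 46.4% of those above the median level were called. *Gabarapl1*, which encodes an LC3 relative, was at -2.03 (SE 0.16, adjusted p = 1.97e-10), *Calcoco1* at -1.03 (SE 0.10), *Nbr1*, a cargo receptor related to p62, at -0.81 (SE 0.07) and *Zfyve1* at -1.10 (SE 0.12). Their list median was -0.19. The subunits of the vacuolar proton pump, which acidifies the lysosome, were higher in 7 of 15 cases and lower in none, with *Atp6v0e* at 0.98 (SE 0.09). The mean over the pump list on the ketogenic diet was 8.98 ± 0.06 in CREB3L3−/− and 8.95 ± 0.03 in PPARα−/− livers (SD, n = 4 and n = 3). It was 8.83 ± 0.06 in PPARα/CREB3L3−/− and 8.69 ± 0.02 in WT livers (SD, n = 4 each), so a higher mean was not particular to CREB3L3−/− livers. Other lysosomal hydrolases and their activators were higher in 6 and lower in 5 of 29, with *Asah1*, the acid ceramidase, at 1.10 (SE 0.11) and the cathepsin genes *Ctsf* and *Ctso* at -1.32 (SE 0.12) and -1.08 (SE 0.09). Of 23 other membrane proteins 6 were higher, *Cd63* by 3.45 (SE 0.28), and 2 lower. The counts of the hydrolases and the membrane proteins, 11 of 29 and 8 of 23, lay between these shares of all and of brighter genes. Those of the further autophagy genes, 15 of 33, and of the proton pump subunits, 7 of 15, were close to the second share.

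In the fasted state the proton pump subunits were higher in 6 of 15 cases in PPARα−/− livers and in 9 of 15 in PPARα/CREB3L3−/− livers, with none lower in either, and in 1 of 15 in CREB3L3−/− livers. Of all genes 5.7%, 9.76% and 1.54% were called in these 3 comparisons. The list mean was 8.85 ± 0.05 in PPARα−/− (n = 3), 8.69 ± 0.05 in CREB3L3−/−, 8.90 ± 0.07 in PPARα/CREB3L3−/− and 8.58 ± 0.03 in WT livers (SD, n = 4). *Atp6ap2* was at 0.53 (SE 0.09) in PPARα−/− and at 0.57 (SE 0.08) in PPARα/CREB3L3−/− livers. Nutrient-sensing genes upstream of autophagy were higher in 8 and lower in 1 of 25 in fasted PPARα/CREB3L3−/− livers, with *Fnip2* at 1.67 (SE 0.21) and *Mtor*, the kinase that holds autophagy back in the fed state, as the lower one, at -0.91 (SE 0.10), again against 9.76% of all genes.

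Over the 8 groups the highest and lowest group mean of a member differed by a median of 0.87, against 0.55 over all genes, and by more than 1 in 13 of the 39, against 4628 of 18820 genes. All members read above the array medians, whereas all genes include many dimmer ones. Ranges of brighter genes alone were not computed, so these values do not show that the members vary more than genes of like intensity. *Gla* had the widest range, 1.90, followed by *Ctss* with 1.86, *Bnip3* with 1.80, *Atg16l2* with 1.74 and *Ulk1* with 1.70. *Lamp1*, *Mcoln1*, *Pik3c3*, *Wipi2* and *Atg4b* were called in none of the comparisons of 2 groups. *Lamp1* stayed between 10.76 and 11.28 and *Mcoln1* between 8.84 and 9.41 over the 30 arrays, *Pik3c3* between 6.73 and 7.50, *Wipi2* between 7.95 and 8.47 and *Atg4b* between 6.33 and 6.88.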

How the data were processed

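Liver RNA of 30 mice was measured on Affymetrix Mouse Gene 1.1 ST arrays. The deposited values are log2 intensities that the authors obtained by RMA in AffyPLM (version not given in the sources used here), and they were used unchanged, from 0.698 to 13.7 with array medians of 4.22 to 4.38. The study's methods describe probe sets remapped to Entrez genes, whereas the deposited identifiers are Affymetrix transcript clusters, so the deposited summary may differ from the one described. The number of arrays limits the precision. Genes were named through the platform annotation, where 21218 of 35556 probe sets carry 1 symbol. The members and gene lists were chosen with earlier results of these data known. A limma fit (version 3.58.1, R 4.3.3) of 8 group means with an intensity trend had 22 residual degrees of freedom and was tested on simulated data. Calls needed P under 0.001 and a fold beyond 1.2, and p values were adjusted over all probe sets. Called members were named with up to 6 per direction and comparison given in full, besides *Ulk1*, *Map1lc3b*, *Sqstm1*, *Tfeb*, *Lamp1*, *Lamp2*, *Ctsd*, *Ctsl* and *Npc1*, and up to 4 genes per further list. Members named beyond these numbers, among them those not called, were chosen after their values were seen. Alternatives changed the variance moderation, the normalization, the filter, the probe set, the arrays fitted, the threshold, the replicate block and 1 liver at a time. Figures were drawn with matplotlib 3.10.9.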

Additional observations from a re-analysis of the deposited data

Results flagged for a closer look

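In 14 of 234 sets of a member and a group of 4 livers, 1 liver stood far from the other 3 by Dixon's criterion, and chance gives about 1 in 20. On the ketogenic diet these were CREB3L3−/− livers for *Atg3* (8.15 in replicate 2), *Map1lc3b* (9.38 in replicate 3) and *Wipi2* (8.37 in replicate 1), and PPARα/CREB3L3−/− replicate 4 for *Tfe3* (7.43) and *Ctss* (8.53). WT replicate 1 on that diet stood apart for *Atg12* (7.06), *Ctsl* (11.27), *Hexa* (9.27) and *Gla* (6.99). Without that liver 22 members were called between CREB3L3−/− and WT livers on the ketogenic diet and 12 between PPARα/CREB3L3−/− and WT livers, against 24 and 14 with it. After the fast they were CREB3L3−/− livers for *Atg13* (9.23 in replicate 1) and *Wipi1* (6.33 in replicate 4), and PPARα/CREB3L3−/− livers for *Map1lc3b* (9.85 in replicate 3), *Wipi1* (7.02 in replicate 2) and *Lamp2* (12.22 in replicate 4).

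The effect of CREB3L3 ablation on the ketogenic diet differed between mice without and with PPARα in 19 members by the interaction term. Beside *Ulk1* (2.01), *Atg14* (1.72), *Bnip3* (1.71), *Wipi1* (0.95), *Atg5* (0.91) and *Rb1cc1* (0.86), it was positive for *Atg3* (0.85), *Lamp2* (0.84), *Atg2a* (0.83), *Atg13* (0.71), *Map1lc3b* (0.65), *Atg16l1* (0.64), *Npc1* (0.57), *Ulk2* (0.56), *Atg2b* (0.55) and *Uvrag* (0.55). It was negative for *Gla* (-1.82), *Map1lc3a* (-0.66) and *Ctsd* (-0.31). Of the 15 fits with 1 liver left out, the call was lost in 14 for *Npc1* and in 10 for *Ulk2* and for *Atg13*. It was lost in 9 for *Uvrag* and for *Ctsd*, in 7 for *Map1lc3a* and in 1 for *Atg2a* and for *Atg16l1*.

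The effect of a knockout on the ketogenic diet minus its effect after the fast was called for each knockout. For CREB3L3 ablation these were *Atg14* (-1.66), *Bnip3* (-1.28), *Ulk1* (-1.21), *Atg10* (-1.16), *Ulk2* (-0.85), *Atg3* (-0.79), *Lamp2* (-0.79), *Rb1cc1* (-0.68), *Atg9a* (-0.57), *Atg2b* (-0.57), *Npc1* (-0.56), *Atg16l1* (-0.53), *Gaa* (-0.45), *Ctsd* (0.60), *Map1lc3a* (0.64), *Ctss* (1.27) and *Gla* (1.40). For PPARα ablation they were *Ctss* (-1.07), *Ulk1* (-1.04), *Ulk2* (-0.76), *Gaa* (-0.76) and *Uvrag* (-0.68). For the combined ablation they were *Ulk2* (-1.12), *Hexa* (-0.85), *Tfe3* (-0.84), *Gaa* (-0.62), *Ctsz* (-0.46), *Lamp2* (-0.38), *Ctsl* (0.81) and *Wipi1* (1.23). For CREB3L3 ablation the calls of *Atg16l1*, *Npc1* and *Map1lc3a* were lost in 13, 8 and 7 of the 16 fits with 1 liver left out. For the combined ablation the call of *Ctsl* was lost in 11 of 16. The WT livers are shared by these comparisons.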

How the results depend on the processing

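No log2 fold change of a member called in any comparison changed sign under any alternative run. Of 191 such calls, 45 were lost with only the arrays of the compared groups in the fit, which leaves fewer degrees of freedom, 21 after median centring, 10 after repeated quantile normalization, 4 with the replicate block, 5 with the mean over all probe sets of a gene, 4 at an adjusted p under 0.05, and none with the intensity-based variance moderation of the study's methods or among probe sets above the median level. At an adjusted p under 0.05 without a fold criterion, the members called numbered 13 for PPARα−/− against WT on the ketogenic diet, 17 for the diet effect in PPARα−/− mice, 17 for that in PPARα/CREB3L3−/− mice, 26 for the regimen difference of the CREB3L3 effect, 8 for that of the PPARα effect, 2 for PPARα/CREB3L3−/− against PPARα−/− on the ketogenic diet and 0 for the fasted interaction. With only the arrays compared they numbered 9 for PPARα/CREB3L3−/− against WT on the ketogenic diet, 2 and 1 for PPARα/CREB3L3−/− against PPARα−/− on the ketogenic diet and after the fast, 1 for the diet effect in WT, 5 for that in PPARα−/− and 7 for that in PPARα/CREB3L3−/− mice. The mean over all probe sets of a gene gave 2 for PPARα/CREB3L3−/− against PPARα−/− on the ketogenic diet and 1 for the fasted interaction. After median centring the autophagy median was -0.046 in fasted and -0.089 in ketogenic PPARα/CREB3L3−/− against WT livers and 0.023 for the diet effect in WT, where the lysosomal median was 0.17. The cause was not tested.

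Same-numbered livers of different groups showed little shared deviation (99 pairs, correlation -0.11 to 0.12, median 0.012). The labels do not say what the replicate numbers stand for, and a weak pairing would not show here, so it is not known whether they pair mice. With the replicate block 2 members were called for PPARα/CREB3L3−/− against PPARα−/− on the ketogenic diet in place of 1, and the other counts stayed within 1.5 times.

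Leaving out 1 liver gave 2 to 5 calls for fasted PPARα−/− against WT, 1 to 3 for fasted CREB3L3−/− against WT, 0 to 3 and 1 to 4 for PPARα/CREB3L3−/− against PPARα−/− after the fast and on the ketogenic diet, 1 to 3 for the diet effect in WT, 4 to 9 for that in PPARα−/− mice and 1 to 3 for the fasted interaction. For CREB3L3−/− against WT on the ketogenic diet it gave 21 to 25. The autophagy median ran from -0.047 to 0.11 in fasted and from -0.13 to -0.034 in ketogenic PPARα−/− against WT livers, and the lysosomal median from -0.088 to 0.053 in CREB3L3−/− and from -0.10 to 0.038 in PPARα/CREB3L3−/− against WT livers on the ketogenic diet.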
